A study of Mus musculus with 2 samples.

Results

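Mir22 is 1 of 2202 microRNA hairpins counted in the mouse heart, and it was picked by its Ensembl gene identifier, ENSMUSG00000065529.1, which GENCODE M21 gives the symbol Mir22. Its level, its rank and the difference between the hearts were among the values that led to its choice, so they are given below as a description without a test. The material was heart tissue of 2 female B6CASTF1/J mice, aged 25 days, with no treatment named. These mice are the first-generation cross of C57BL/6J with CAST/EiJ. Each heart gave 1 microRNA-seq library, a count of short RNA fragments, labelled as biological replicate 2 or 1 of a single group. The labels number the animals separately yet give both the same donor identifier, so that the libraries came from separate animals rests on those labels, and a free-text label writes the age in another unit.

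A microRNA is cut from a folded hairpin precursor as a short strand from either arm, and its seed, bases 2 to 8, pairs with target messenger RNAs and lowers their output. miR-22 is abundant in heart and skeletal muscle. In mice, loss of miR-22 blunts the growth of heart muscle cells under stress and leaves the heart prone to dilation, and the deacetylase genes Hdac4 and Sirt1 are among its reported targets. The tables count whole hairpins, so the values below do not separate the arms.

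The hairpin lies at chr11:75463716-75463810 on the plus strand of mm10, with the same start and end in GENCODE M21 and in RefSeq on GRCm38.p6. It is shown with its mature arms because every Mir22 count below belongs to this stretch. The RefSeq hairpin follows with both arms in capitals, and the mature strands with the seed in capitals, at chr11:75463772-75463793 for the 3p arm and chr11:75463734-75463755 for the 5p arm.
Mir22 hairpin: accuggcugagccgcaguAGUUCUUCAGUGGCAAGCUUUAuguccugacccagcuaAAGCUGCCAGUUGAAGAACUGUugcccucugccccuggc
mmu-miR-22-3p: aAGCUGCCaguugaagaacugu
mmu-miR-22-5p: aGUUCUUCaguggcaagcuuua

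The hairpin is 95 nt long and each arm 22 nt, with 16 nt between the arms. Folded with RNAfold, the hairpin had a minimum free energy of -41.9 kcal/mol and 36 base pairs. In that fold, 19 bases of the 5p arm paired with the 3p arm, and all 7 bases of the 3p seed were paired. The GC content was 55.8%, against a median of 50.8% over 326 hairpins that reached 10 counts in either library, called compared hairpins below. Across those 326 hairpins, Spearman's rho between GC content and the log2 ratio between the hearts was -0.08, a description of points that share the same pair of libraries.

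No close copy of miR-22 stood in the tables. Of 1738 mature mouse sequences in RefSeq, which covered 294 of the 326 compared hairpins, 0 others shared the seed of either miR-22 arm. The longest stretch the 3p arm shared with any of the other 2201 hairpins was 11 nt, the longest for the 5p arm was 10 nt, and the longest for the whole hairpin was 12 nt. Among GENCODE M21 transcripts, each arm matched exactly 4, namely Mir22-201, Mir22hg-201, Mir22hg-202 and Tlcd2-203, which all overlap the hairpin itself. A whole genome was not searched.

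Mir22 lies in an exon of its host and not in an intron. Mir22hg, the non-coding host gene, runs from 75461539 to 75466676 on chromosome 11 on the same strand. The hairpin starts 23 bases into exon 2 of both Mir22hg transcripts. Exon 2 of Tlcd2-203, a transcript of the protein-coding gene Tlcd2 with no coding sequence annotated, also holds it. The other Tlcd2 transcripts start farther along and do not overlap the hairpin.

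**Figure D1:**
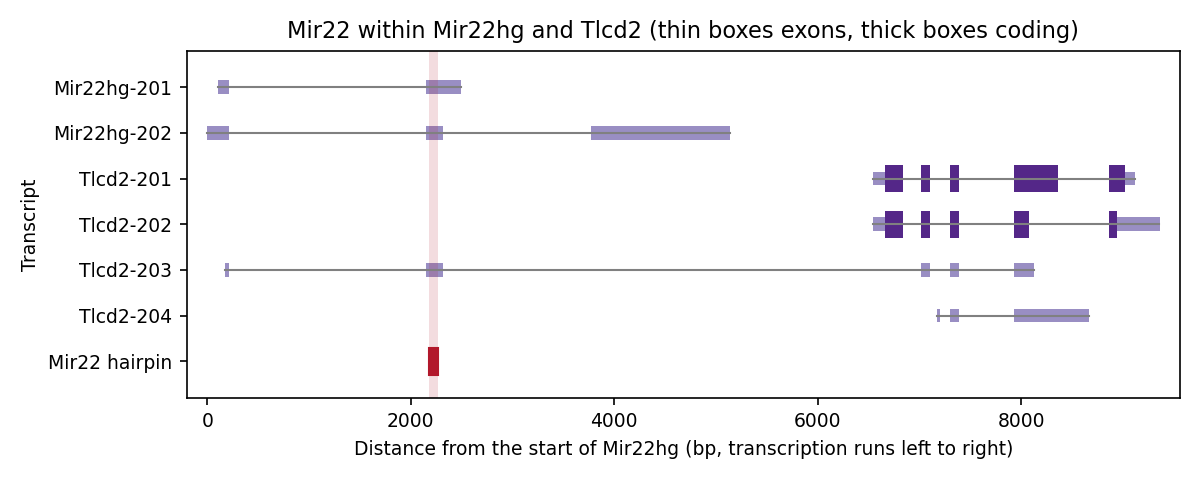
Map of the transcripts that overlap or neighbour the Mir22 hairpin (rows) against the distance in bp from the start of Mir22hg (x axis), with thin boxes for exons, thick boxes for coding sequence and a red band for the 95 nt hairpin. The band crosses exon 2 of Mir22hg-201, Mir22hg-202 and Tlcd2-203 and lies before the coding exons of Tlcd2.

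In all, 2661090 reads of replicate 2 and 2050498 reads of replicate 1 were assigned to hairpins, 41.2% and 41.0% of all reads. Reads that matched several places made up 41.6% and 38.5% and entered no hairpin count. Heart muscle markers were present in both libraries: Mir208a, from the myosin gene Myh6, had 5862 CPM in replicate 2 and 1620 CPM in replicate 1, and Mir499, from Myh7b, had 2317 and 2629 CPM. CPM expresses each count relative to the summed hairpin counts of its library, on the usual scale, and is not divided by hairpin length. The muscle hairpins Mir1a-1, Mir1a-2, Mir133a-1 and Mir133a-2 had at most 31 counts in replicate 2 and 94 in replicate 1. These are numbered loci of miR-1 and miR-133a. With reads that matched several places left out, their counts may understate the level of the mature microRNA.

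Mir22 was among the most abundant hairpins of both hearts. It had 29076 counts in replicate 2 and 82929 counts in replicate 1. That was 10926 CPM in replicate 2 (95% Wilson interval 10802 to 11052) and 40443 CPM in replicate 1 (40175 to 40714). The intervals cover counting error only, since PCR copies were not told apart, and they do not overlap. Mir22 thus held 1.09% of the hairpin counts in replicate 2 and 4.04% in replicate 1, a mean of 2.57% ± 2.09 (SD, n = 2). As a share of all reads of the library, it made up 0.451% and 1.66%.

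All counted Mir22 reads lay on the strand of the hairpin. The column for either strand held the same 29076 and 82929 reads, and the opposite strand held 0 reads in each library. A count of 0 allows up to 3 counts, 0.0103% of the Mir22 count in replicate 2 and 0.00362% in replicate 1.

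By level, Mir22 ranked 16 of 2202 in replicate 2 and 9 in replicate 1, and 12 by mean CPM. It stood 194 times above the median compared hairpin in replicate 2 and 605 times above it in replicate 1. In both libraries 8 hairpins were above Mir22, and in replicate 1 there were no others. These were Mir378a, Mir126a, Mirlet7i, Mir23b, Mirlet7g, Mir23a, Mirlet7b and Mir139. In replicate 2 a further 7 were above it, Mir99a, Mir143, Mir26b, Mir99b, Mirlet7d, Mir30d and Mir191. No hairpin was above Mir22 in replicate 1 alone.

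**Figure D2:**
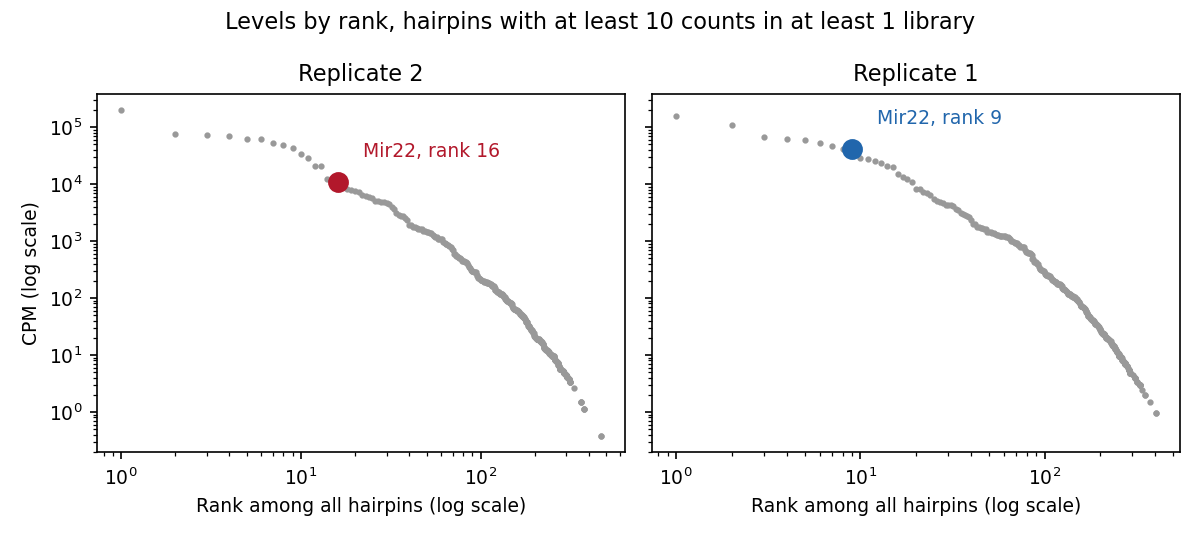
CPM (y axis, log scale) against rank among all hairpins (x axis, log scale) in replicate 2 and replicate 1, 1 point per compared hairpin, with Mir22 as the large point. Mir22 sits on the upper shoulder of both curves, at rank 16 in replicate 2 and rank 9 in replicate 1.

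The place of Mir22 in the order was less sharp than its counts, because its values in the hearts lay far apart. The mean was 25685 ± 20872 CPM, an SD of 81.3% of the mean. The range from 10926 to 40443 CPM overlapped that of 11 other hairpins, while 7 lay wholly above it and 2183 wholly below. The 11 were the 7 above Mir22 in replicate 2 alone, with Mir139, Mir149, Mir30a and Mir125a. Within each library the order was constant for some of the 11. Mir139 was above Mir22 in both, and Mir149, Mir30a and Mir125a were below it in both. With 2 values each, the overlap is a description, and no difference in level was tested.

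The nearest hairpins by mean level differed less between the hearts. Just above Mir22, Mir26b, from an intron of the phosphatase gene Ctdsp1, had 28458 CPM in replicate 2 and 23741 CPM in replicate 1. Just below, Mir99b had 21018 and 19883 CPM, and Mirlet7d, of the let-7 family of growth regulators, had 20364 and 20493 CPM. The values of these 3 neighbours lay close together in the hearts, and all fell inside the Mir22 range. Farther up stood Mir143 of smooth muscle, with 42505 and 28118 CPM, Mir139, with 33367 and 40943 CPM, Mir99a, with 52650 and 27061 CPM, and Mirlet7b, with 49199 and 53007 CPM. Farther down were Mir30d (12123 and 25244 CPM), Mir191 (12244 and 11075 CPM) and Mir149 (8038 and 14862 CPM).

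**Figure D3:**
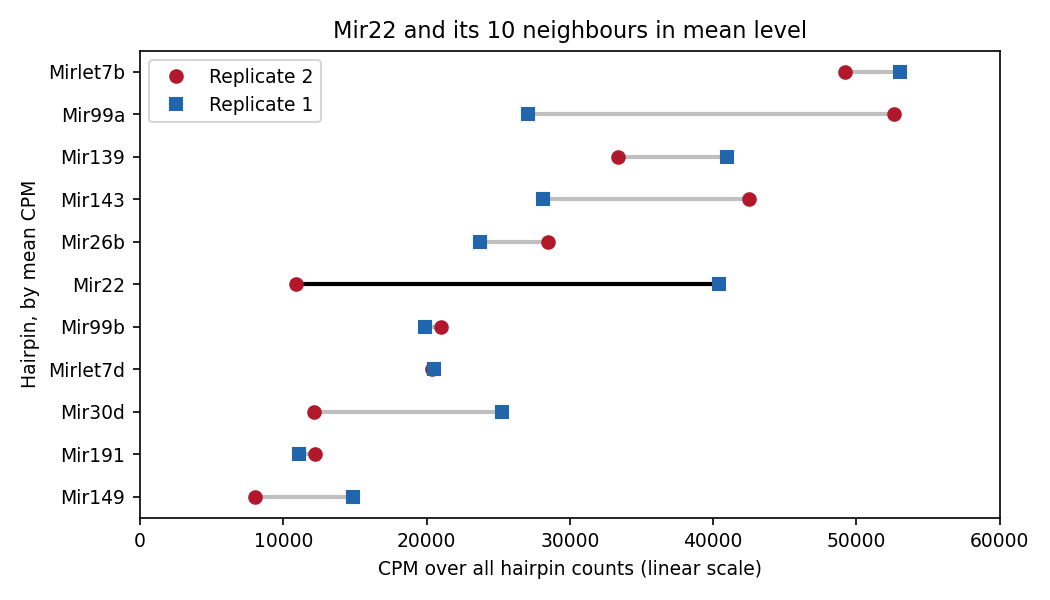
CPM (x axis, linear from 0) of Mir22 and the 5 hairpins next above and next below it by mean CPM (rows), with a red circle for replicate 2, a blue square for replicate 1 and a line joining them. Mir22 has the longest line of the 11, from 10926 CPM in replicate 2 to 40443 CPM in replicate 1.

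Mir22 was lower in replicate 2 than in replicate 1. The log2 ratio of replicate 2 over replicate 1, on CPM plus 1, was -1.89, with an exact binomial interval of -1.91 to -1.87 for counting error. The level in replicate 1 was 3.70 times that in replicate 2 (3.65 to 3.75). As a difference in CPM it was the third largest of all hairpins in size, after Mir126a and Mir378a, which are far more abundant. No test between animals was made, because this difference led to the choice of Mir22 and because each library stands alone as 1 value.

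Each ratio depends on how the libraries are scaled to each other. The median log2 ratio of the compared hairpins was -0.14 with CPM, -0.02 with TMM scaling and 0.15 with DESeq2 size factors. Relative to that median, Mir22 stood at -1.75 with CPM.

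Among hairpins of similar level, with a mean CPM within 2-fold of that of Mir22, Mir22 had the lowest ratio. There were 8 such hairpins, and 0 of them had a ratio as far from 0 as that of Mir22. Their ratios ran from -1.06 for Mir30d to 0.96 for Mir99a, with a median of 0.04. In SD as a percent of the mean, the 8 ranged from 0.446% to 49.7%, with a median of 13.6%, below the 81.3% of Mir22. With CPM, 1 of the 8 (12.5%) differed by more than 2-fold, Mir30d. Mir30d and Mir99a both lie near the 2-fold line, so which of them passes it depends on the scaling. The median of the 8 was 0.16 with TMM and 0.33 with DESeq2 size factors. The 4-fold window, with 21 hairpins including Mir22, again had Mir22 lowest.

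Over all compared hairpins, differences of more than 2-fold were common. In replicate 2, 58 of 326 (17.8%) were more than 2-fold lower and 32 (9.82%) more than 2-fold higher, 90 (27.6%) in all. With DESeq2 size factors the split was 41 lower and 49 higher. As low as Mir22 or lower stood 19 hairpins (5.83%), Mir22 included, and 28 (8.59%) were as far from 0 in either direction. Among the 65 compared hairpins with a mean of at least 1000 CPM, Mir22 ranked 4 from the lowest, after Mir214, Mir195a and Mir15a. The means of those 3 hairpins were 2380, 3886 and 1069 CPM, well below that of Mir22.

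**Figure D4:**
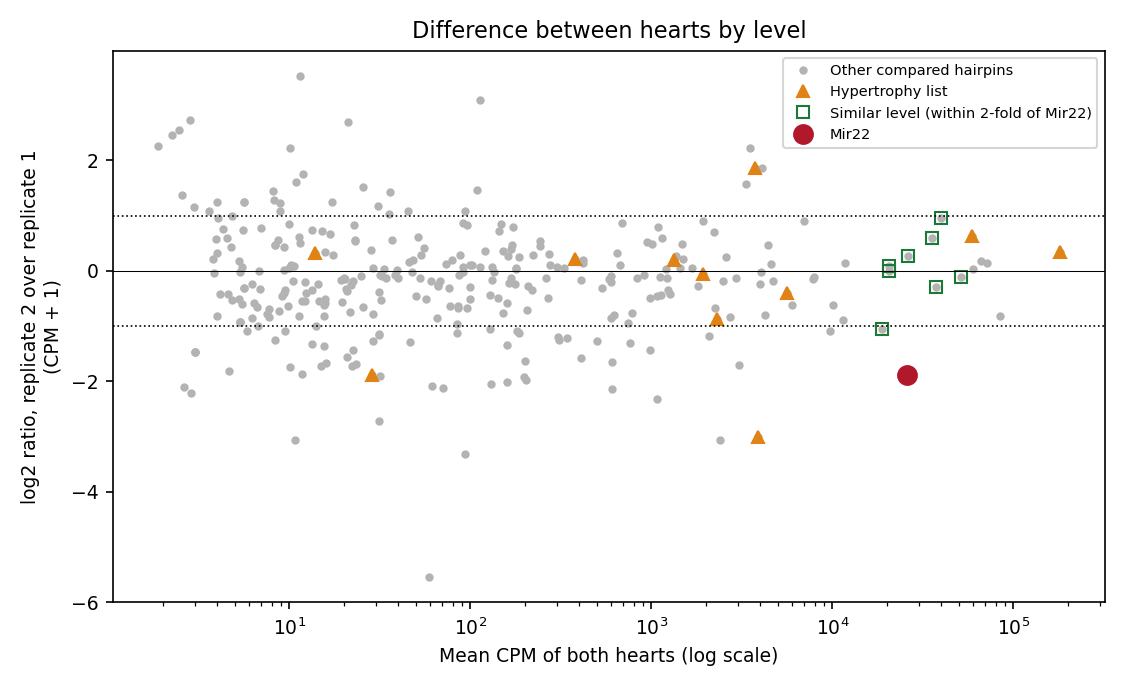
The log2 ratio of replicate 2 over replicate 1 on CPM plus 1 (y axis) against mean CPM (x axis, log scale) for the 326 compared hairpins, with dotted lines at 2-fold. Mir22, the large red circle at -1.89, lies below all 8 hairpins of similar level (open green squares, -1.06 to 0.96), and lower ratios occur at lower mean levels.

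The 5 hairpins of at least 1000 CPM whose ratios came closest to that of Mir22 over the 2 libraries were Mir15b, Mir15a, Mir34a, Mir125a and Mir30d. Their distances from the Mir22 ratio were 0.19, 0.43, 0.70, 0.80 and 0.83 on the log2 scale. Mir15b, of the miR-15 family that restrains the cell cycle, had 3806 counts in replicate 2 and 9521 in replicate 1, and Mir15a had 947 and 3656. Mir34a, a p53-induced microRNA, had 3354 and 5888 counts, Mir125a had 16403 and 26899, and Mir30d had 32261 and 51763. That all 5 were lower in replicate 2 follows from how they were picked.

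Measured against markers of heart cell types, Mir22 differed by different amounts. There were 1.86 Mir22 counts per Mir208a count in replicate 2 and 25.0 in replicate 1. Per Mir499 count there were 4.71 and 15.4 Mir22 counts, and per Mir126a count, the endothelial microRNA, 0.179 and 0.374. Against Mir26b, its nearest neighbour in level, there were 0.384 and 1.70. Each of these 4 ratios was lower in replicate 2, which follows for any hairpin whose own log2 ratio lies above that of Mir22. The markers Mir214, Mir144 and Mir205 had log2 ratios below it, of -3.06, -1.97 and -5.55. Against those markers, Mir22 was higher in replicate 2. Mir1a-2, at -1.89, was about level with Mir22.

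Marker levels also differed between the hearts. The 7 cardiomyocyte hairpins summed to 8308 CPM in replicate 2 and 4493 CPM in replicate 1, with 4 of 7 compared, and 1 compared hairpin more than 2-fold lower and 1 more than 2-fold higher. The higher one was Mir208a, at 15598 and 3322 counts. The other 3 compared, Mir208b, Mir499 and Mir1a-2, had log2 ratios of -0.77, -0.18 and -1.89. Without Mir208a the sum was 2447 CPM in replicate 2 and 2872 CPM in replicate 1, a log2 ratio of -0.23 with CPM and 0.06 with DESeq2 size factors. Smooth muscle and pericyte hairpins summed to 48287 and 29354 CPM, with Mir145a more than 2-fold higher. Mir126a had 60950 and 108082 CPM. Fibroblast hairpins summed to 2424 and 6244 CPM, of which Mir214 gave most of the difference (1353 and 8717 counts). Mir199a-1 was at 0 in both, with reads that matched several places left out. Without Mir214 the fibroblast sum was 1916 and 1993 CPM. The 3 erythroid hairpins summed to 869 and 1783 CPM. All 3 were lower in replicate 2, as were 191 of the 326 compared hairpins.

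Other lists differed less in their sums or were small. The leukocyte hairpins summed to 6121 and 6066 CPM, but the members went opposite ways. Of the 5, 1 was lower in replicate 2, Mir155, with a log2 ratio of -0.87. Mir150, Mir223, Mir142 and Mir342 had log2 ratios of 0.90, 0.80, 0.54 and 0.05. Epithelial hairpins summed to 211 and 347 CPM, or 209 and 231 CPM without Mir205, which had 4 and 238 counts. Mir122, the liver microRNA, had 203 and 22.9 CPM. Mir126a and the erythroid sum were thus lower in replicate 2, as Mir22 was, and the smooth muscle sum and Mir122 were higher. The differences in the cardiomyocyte, fibroblast and epithelial sums each rested largely on 1 hairpin. Mir126a and Mir122 are themselves lists of 1 hairpin each. In whole tissue, fewer cells of a type and less microRNA per cell cannot be told apart, and the part of cell makeup in the Mir22 difference was not tested.

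Mir22 was compared with other microRNAs linked to cardiac hypertrophy, the growth of heart muscle cells under load. The list held 17 hairpins reported in rodent hearts, 11 that promote hypertrophy, Mir22 among them, and 6 that restrain it. Of the 17, 12 were compared, and 3 were more than 2-fold lower and 1 more than 2-fold higher in replicate 2. Without Mir22 these were 2 and 1 of 11, beside 17.8% lower and 9.82% higher over all compared hairpins. The median log2 ratio was 0.07 with Mir22 and 0.19 without it, against -0.14 over all compared hairpins.

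Of the promoting microRNAs, Mir22 was second in level in both hearts, after Mir23a, which targets the muscle ubiquitin ligase MuRF1. Mir23a had 71727 CPM in replicate 2 and 46419 CPM in replicate 1. Mir22 made up 11.1% of the summed CPM of the 11 in replicate 2 and 37.8% in replicate 1. Mir208a, needed in mice for stress-induced hypertrophy, went the opposite way to Mir22 with a log2 ratio of 1.85. Mir195a, whose excess in mouse hearts causes enlargement and failure, was lower in replicate 2 like Mir22, with 2283 and 14176 counts and a log2 ratio of -3.01.

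The other compared promoting members lay within 2-fold. Mir27b had 4834 and 6407 CPM, Mir155, an inflammatory microRNA, 1632 and 2981 CPM, and Mir21a, which acts in cardiac fibroblasts, 1903 and 1974 CPM. The Mir21a ratio was -0.05 with CPM and 0.07 with TMM scaling. Mir199a-1 had 0 counts and Mir199a-2 had 6 and 9, too few to be compared. Reads that matched several places were left out at these numbered loci, so the counts may understate miR-199a.

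Of the microRNAs that restrain hypertrophy, Mir378a led both libraries with 200864 and 158989 CPM, and its log2 ratio was 0.34. Mir98, of the let-7 family, had 1425 and 1246 CPM. Mir1a-2, a locus of the muscle microRNA miR-1, had 31 and 94 counts, with a log2 ratio of -1.89. That is close to the Mir22 ratio, but on so few counts it carries far more counting error. The remaining loci were near 0, with 1 and 3 counts at Mir1a-1, 8 and 3 at Mir133a-1 and 7 and 8 at Mir133a-2. Reads that matched several places were left out, so these counts are not the level of miR-1 or miR-133a in the heart.

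**Figure D5:**
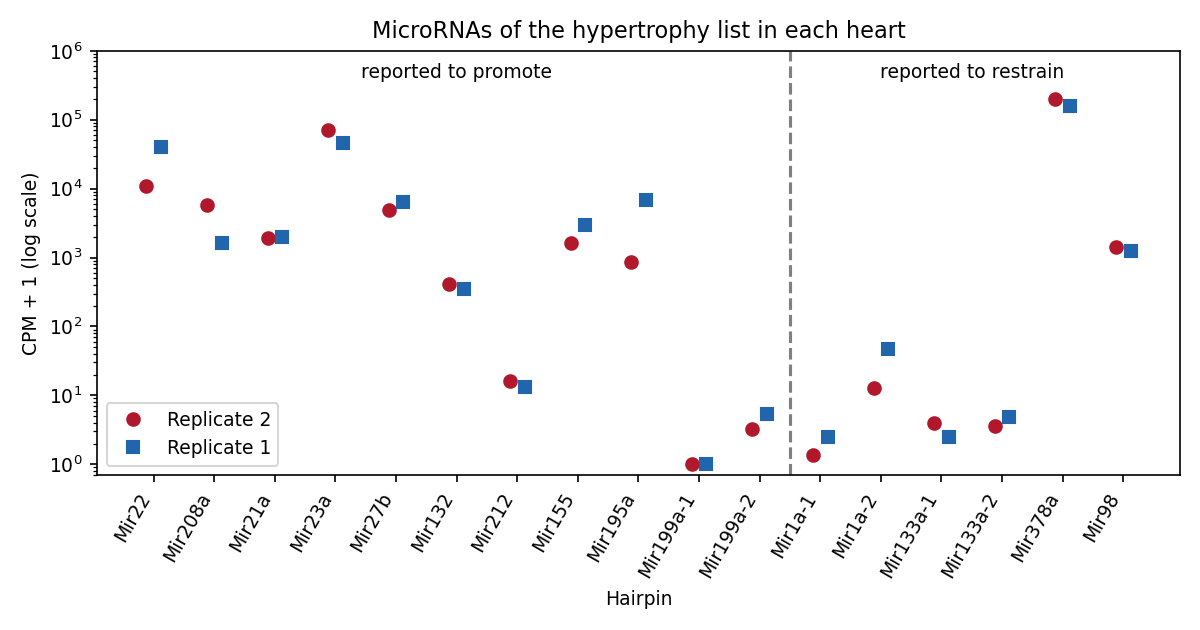
CPM plus 1 (y axis, log scale) of the 17 hairpins of the hypertrophy list (x axis), with a red circle for replicate 2 and a blue square for replicate 1, and a dashed line between those reported to promote and those reported to restrain hypertrophy. Mir22, Mir195a and Mir1a-2 have red points well below blue, and Mir208a has red above blue.

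The nearest counted hairpins on the chromosome did not share the Mir22 difference in direction. Mir212 and Mir132, which share a seed and target the transcription factor FoxO3, lie about 290 kb before Mir22 on the same strand. Their mature strands, shown for that shared seed in capitals, differ from miR-22 and are at chr11:75173723-75173744 for miR-132-3p and chr11:75173443-75173464 for miR-212-3p.
mmu-miR-132-3p: uAACAGUCuacagccauggucg
mmu-miR-212-3p: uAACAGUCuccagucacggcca
Mir132 had 1080 counts in replicate 2 and 718 in replicate 1, with a log2 ratio of 0.21, and Mir212 had 41 and 25 counts, with a log2 ratio of 0.31. The other hairpins within 500 kb, Mir3971 and Gm47300, had 0 counts in both libraries.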

How the data were processed

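Raw read counts per hairpin were deposited for 2 heart libraries, without normalization, in columns for either strand, the strand of the hairpin and the opposite strand. The reads were placed on mm10 with GENCODE annotation M21, per the file headers of the deposited text notes; aligner and counter are not given in the sources used here. All 2202 identifiers matched GENCODE M21. Column 3, the strand of the hairpin, was used. CPM was computed over the sum of all hairpin rows; unmapped (11.5% in replicate 2, 14.1% in replicate 1), no-hairpin (5.64% and 6.48%), ambiguous and multimapping reads stayed out. Ratios used a pseudocount of 1 CPM. The count ratio interval was exact binomial. The 3 counts that a count of 0 allows come to 1.13 CPM for the deeper library, replicate 2, and 1.46 CPM for replicate 1. With 1 group of 2 libraries, no test was made. Scaling alternatives used edgeR 4.0.16 (TMM) and DESeq2 1.42.0 (size factors) in R 4.3.3; the rest used Python 3.11.15, and folds RNAfold 2.7.2. The ratio calculation was tested on simulated data. Sequences came from RefSeq on GRCm38.p6, in which 13 of the 17 listed hairpins matched by symbol.

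Named hairpins were Mir22, the hypertrophy list, the 5 nearest in level on each side, any of similar level with a larger difference (0 were found), the 5 most alike in ratio, those within 500 kb, those sharing a seed, and the cell type markers. Other hairpins were named after their values were seen. Mir22 and all lists were chosen with earlier results of these data known.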

Additional observations from a re-analysis of the deposited data

How the results depend on the processing

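Mir22 was lower in replicate 2 under all 9 alternatives for its log2 ratio, from -1.94 to -1.59. The value was -1.76 with TMM, -1.59 with DESeq2 size factors, -1.59 without the 10 highest hairpins, -1.94 with multimapping reads added to the total and -1.92 with the median of similar hairpins set to 0. These 5 lay outside the counting interval because each changes the ratio of the library totals, or subtracts a median. The mean level depended on the total it was set against: 77426 CPM without the 10 highest hairpins, 13148 with multimapping reads added and 10536 over all reads, against 25685 over the hairpin sum. Leaving out 1 replicate at a time gave 10926 to 40443 CPM and ranks of 9 to 16, and left no ratio to compute. Mir22 kept the lowest ratio among hairpins of similar level in all 7 alternatives. The number of hairpins past 2-fold was 59 of 223 with at least 50 counts in 1 library, against 90 of 326, where fewer hairpins were counted, and 65 of 326 (49 lower and 16 higher) with a pseudocount of 5 CPM. The hypertrophy list gave 3 or 4 hairpins past 2-fold in all 3 alternatives. These were 4 of 12 with TMM, 3 of 11 without numbered loci and 3 of 10 with the either-strand column. Over all compared hairpins the share in the main setting was 27.6%. Chosen after seeing the data, leaving 1 hairpin out of a marker sum turned the cardiomyocyte log2 ratio to -0.23 (0.89 with Mir208a), and gave -0.06 for fibroblasts (-1.36 with Mir214) and -0.14 for epithelium (-0.72 with Mir205). No paired analysis was possible because both libraries belong to 1 group. Depth did not limit Mir22 itself, and 2 libraries limit what can be said of animals.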

Other observations

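Hairpins that lie in an exon of a non-coding gene on their own strand, as Mir22 does, made up 42 of the 326 compared hairpins (12.9%). Mir22 ranked 3 of the 42 by mean CPM, after Mirlet7i and Mirlet7b. Hairpins that also lie in an exon of a coding gene, as Mir22 does in Tlcd2, were counted among the 42. The 42 had a median level of 155 CPM, against 70.8 CPM for the 125 in introns of coding genes. The median was 90.7 CPM for the 29 in introns of non-coding genes and 23.0 CPM for the 27 in exons of coding genes only. For the 103 with no gene on their strand it was 50.1 CPM. The median log2 ratio of the 42, replicate 2 over replicate 1, was -0.22, against -0.14 for all compared hairpins. Mir155 in Mir155hg had 4344 counts in replicate 2 and 6113 in replicate 1, and Mir17 in Mir17hg had 3225 and 2440. Mir214 in Dnm3os had 1353 and 8717.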
